A study of Homo sapiens with 6 samples.

Results

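SP100, SP110 and SP140L encode related nuclear proteins of the SP100 family, and they were described here as gene sums and as single transcripts (isoforms) in 92.1 cells, an established human ocular melanoma line, with and without knockdown of ALKBH3. The isoforms were chosen by gene symbol alone. Of 28900 transcripts listed in the deposited tables, 20 belonged to these 3 genes, with 10 for SP100, 6 for SP110 and 4 for SP140L. GENCODE release 29 annotates 44 transcripts of the 3 genes, and the 24 others were not in the tables, whose level is therefore not known. The control group, labelled NC, had 3 libraries with a WT genotype, and the other group, labelled shALKBH3, had 3 libraries with an ALKBH3 knockdown genotype. All 6 libraries came from 92.1 cells grown in medium with fetal bovine serum. The labels do not say whether NC cells carried a control hairpin, whether the knockdown line was 1 clone, or whether the 3 samples of a group were cultures of their own, so every p-value here is set by the spread among 3 samples that may differ only technically.

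SP100 is a resident protein of PML nuclear bodies, small nuclear structures built on the PML protein and on SUMO, a small protein joined to other proteins. SP100 family proteins read chromatin through domains at their carboxyl end, among them the SAND, PHD and bromodomain modules, and SP100 itself restrains the genes of incoming DNA viruses. The genes are known targets of interferon signalling, in which transcription factors such as STAT2 and IRF9 act on promoters. Splicing gives SP100 several proteins: the short form Sp100A lacks the SAND domain, Sp100B has it, Sp100C adds a PHD finger and a bromodomain, and Sp100-HMG ends in HMG boxes that bind DNA. SP110 is a nuclear body protein linked to inherited immunodeficiency with liver disease, SP140 is a chromatin reader known mainly from leukocytes, and SP140L is a close relative of SP100 and SP140.

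The values are FPKM, that is fragments scaled by transcript length and by the number of mapped fragments, estimated by the authors for each transcript. They allow levels of different isoforms to be compared. Read counts were not used here and the sequencing depth is unknown, so no counting interval is given. The listed FPKM of a library summed to between 340950 and 361268 in NC and to between 326875 and 333987 in shALKBH3, and values were not rescaled for this. ALKBH3, the knocked-down gene, measured 10.5, 10.6 and 9.19 FPKM in the 3 NC libraries against 3.29, 3.60 and 4.24 FPKM in the 3 shALKBH3 libraries, so the groups did not overlap and the labels match its level.

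All 3 genes rose in the knockdown libraries, SP110 by 2.66 times, SP140L by 2.59 times and SP100 by 1.93 times. SP100 had the highest level of the 3, with gene sums of 59.4, 62.1 and 47.9 FPKM in NC (replicates 1, 2 and 3) and 98.5, 116 and 112 FPKM after knockdown. SP110 was at 21.2, 24.4 and 21.7 FPKM in NC and at 53.7, 65.3 and 59.9 FPKM in shALKBH3, in the same replicate order. SP140L was at 6.37, 7.41 and 6.52 FPKM in NC and at 17.3, 18.6 and 16.8 FPKM in shALKBH3. In each of the 3 genes the lowest knockdown library lay above the highest control library, and in both groups the order was SP100, SP110, SP140L in every library.

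These are ratios of group means. On the log2(FPKM + 1) scale, which understates the change of low genes, SP100 rose by 0.94 (SE 0.123, limma adjusted p = 0.0260), SP110 by 1.37 (SE 0.103, adjusted p = 0.00404) and SP140L by 1.26 (SE 0.0956, adjusted p = 0.00405). Among all 10475 genes tested 1.28% were called higher at an adjusted p under 0.05, and in 12.9% all knockdown libraries lay above all controls. For SP100 the adjusted p was above 0.05 when NC replicate 1 (0.0948) or any of shALKBH3 replicates 1, 2 and 3 (0.0591, 0.109 and 0.122) was left out, while those of SP110 and SP140L held without any 1 library. In bulk RNA, more cells that express a gene and more RNA per cell cannot be told apart.

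SP140, the remaining gene of the family in the tables, was at 0.703, 1.62 and 1.20 FPKM in NC and at 2.09, 1.71 and 1.93 FPKM in shALKBH3. The log2 difference of 0.44 (SE 0.186) did not pass (limma adjusted p = 0.301), and the gap between the groups rested on 1 isoform in 1 library. SP140-201 was at 1.502 FPKM in shALKBH3 replicate 1 and was listed at 0 in replicates 2 and 3, while the other listed isoform, SP140-203, overlapped, at 0.703, 1.29 and 1.20 FPKM in NC and 0.588, 1.71 and 1.93 FPKM in shALKBH3. SP140 was the lowest of the 4 genes in every library.

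**Figure D1:**
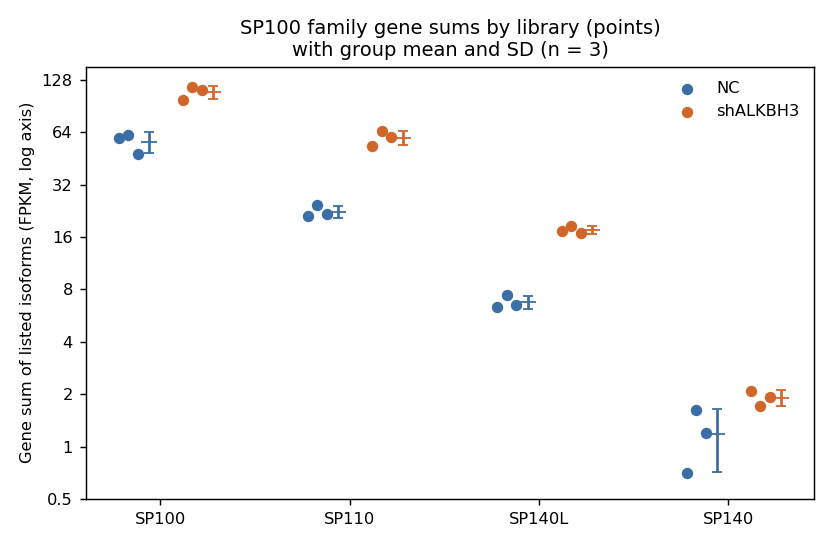
Gene sums of the listed isoforms (FPKM, log axis) for SP100, SP110, SP140L and SP140, with 1 point for each of the 3 NC and 3 shALKBH3 libraries and the group mean with its SD beside them. The knockdown points lie above all control points in SP100, SP110 and SP140L, and in SP140, where the log2 difference did not pass, they do so only through SP140-201 in shALKBH3 replicate 1.

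The sequences before the start sites of these genes are shown because the members moved together, and because 1 short run of bases is common to all of them. RefSeq windows (build GRCh38.p14) cover 250 bases before and 50 bases from each annotated start, and 6 such windows belong to the family. The letters TTTCACTT, which resemble the element that interferon regulatory factors bind, were searched on both strands and were chosen after the windows had been read. They were found in 5 of the 6 windows, covering all 4 genes, and in 1.62% of all 35116 windows. The windows are named below with the strand printed, and the capitals mark those 8 letters.
SP100: aaatacTTTCACTTctcttttccccatttg
SP140L: aaatacTTTCACTTttcttttccccatttg
SP110: gaaaacTTTCACTTttcttttctcggaagc
SP140: aggcaaTTTCACTTttcttttcctctttga

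The SP100 window is chr2:230416131-230416160 on the plus strand, and its 8 letters begin 64 bases before the RefSeq start. The SP140L window is chr2:230327100-230327129 on the plus strand, with the letters 87 bases before the start. The SP110 window is chr2:230220012-230220041 on the minus strand, 51 bases before the RefSeq start near which all 6 listed SP110 isoforms begin. Of these isoforms SP110-202 begins upstream of the letters, so they do not lie before its own start. The SP140 window is chr2:230225720-230225749 on the plus strand, and the same bases, read on the other strand, lie before a second SP110 start that is 100 bases from the SP140 start on the opposite strand. By GENCODE 29 the SP140L window overlaps no annotated exon of the 4 genes. The SP110 window overlaps an exon of SP110-202, and the SP100 window overlaps exons of SP100-201 and SP100-208. The SP140 window overlaps exons of SP140-201, SP140-203 and some transcripts that are not listed.

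The match went on past the 8 letters. The 16 bases from the first capital were TTTCACTTTTCTTTTC in SP140L, SP110 and SP140, and this run was found in 4 of the 35116 windows, all of them in these 3 genes. The run was read from the SP140L window itself, so its presence there was fixed in advance, and its rarity among all windows is no test. SP100 carried T9C in this run, counted from 1 at its 5′ end. With at most 1 base different the run was found in 13 windows (0.037%) of 12 genes, of which SP100, SP110, SP140 and SP140L are 4. The 250 bases before the SP100 and SP140L starts were 74.5% identical in a global alignment, so these 2 windows are not independent. The SP140 window and that of the second SP110 start overlap and hold the run at the same bases. That site is therefore counted in both windows, for the run and for the 8 letters. The letters TTTC repeated after 2 bases were in 0 of the 6 windows and in 3.57% of all windows, and TTTC repeated after 3 bases, which overlaps the run, in 4 of 6 and in 2.86%. A further pattern searched, TTCNNNGAA (N for any base), was in 1 of the 6 windows, in SP110, and in 7.66% of all windows. A match of letters is a description and was not tested as a binding site, and the authors' values come from another build, hg19.

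The single isoforms were higher in the knockdown in most cases, and 1 of them passed the test. Of the 20 listed isoforms 19 had a higher mean in shALKBH3, against 50.7% of all matched isoforms in the tables. In 11 of the 20 all knockdown libraries lay above all controls, against 8.83% of all matched isoforms, and in 0 did they lie below (7.89%). Every listed isoform has a higher group mean of at least 0.5 FPKM, and 4 of the 20 (SP100-206, SP100-207, SP110-205 and SP110-206) had a NC mean under that value, so that the listing itself fixed their direction. Without these 4 a higher mean was found in 15 of 16, and none of the 4 was among the 11. Tested singly, with a mean of at least 1 FPKM, 1 of 17 isoforms passed, SP110-202, where 0.35% of 19698 isoforms were called higher by limma and 0.472% in either direction. At an unadjusted p under 0.05 there were 10 of the 17, against 9.74% of all isoforms in either direction. Isoforms of 1 gene share fragments, so the 20 are not independent observations, and these counts partly repeat the rise of the gene sums.

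**Figure D2:**
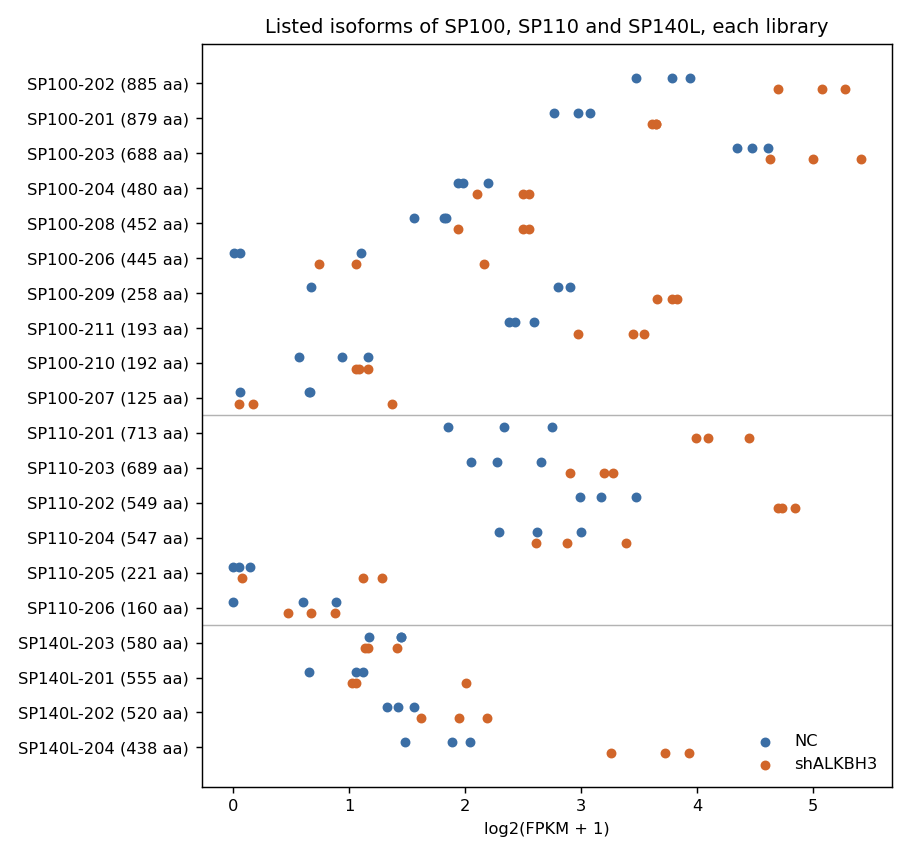
Level of each of the 20 listed isoforms as log2(FPKM + 1), ordered within each gene by annotated protein length in amino acids (aa), with 1 point for each of the 3 NC and 3 shALKBH3 libraries. The knockdown points are separate from the control points in 11 isoforms, among them SP100-202, SP110-201, SP110-202 and SP140L-204, and mixed with them in 9.

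For SP100 the 3 longest proteins made up most of the gene sum. SP100-203, whose 688 amino acids are the length of Sp100B, was the most abundant isoform in NC, at 21.2, 23.4 and 19.3 FPKM in replicates 1, 2 and 3, and was at 23.8, 31.0 and 41.7 FPKM in shALKBH3. SP100-202, whose 885 amino acids are the length of Sp100C, was at 12.8, 14.3 and 10.1 FPKM in NC and at 32.8, 37.9 and 25.0 FPKM in shALKBH3. SP100-201, with the 879 amino acids of Sp100-HMG, was at 7.45, 6.86 and 5.81 FPKM in NC and at 11.5, 11.2 and 11.5 FPKM in shALKBH3. None of these 3 overlapped between the groups, and shALKBH3 replicate 3 stood apart from replicates 1 and 2 in having more SP100-203 and less SP100-202.

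The ratio of means was 2.57 for SP100-202, 1.70 for SP100-201 and 1.51 for SP100-203. Their log2 differences were 1.29 (SE 0.202), 0.69 (SE 0.125) and 0.54 (SE 0.216), with limma adjusted p-values of 0.111, 0.151 and 0.508, and none passed. Of the mean increase of the SP100 sum 37.1% was in SP100-202, 20.7% in SP100-203 and 15.5% in SP100-209. SP100-209 is annotated with an open start, ends at the stop codon of SP100-202 and begins 87506 bases from the nearest RefSeq start. It was at 5.97, 6.51 and 0.597 FPKM in NC and at 11.6, 12.7 and 13.2 FPKM in shALKBH3, so NC replicate 3 stood far below the other controls.

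The shorter SP100 forms were low. SP100-204, with the 480 amino acids of Sp100A, was at 3.58, 2.94 and 2.83 FPKM in NC and at 4.87, 4.67 and 3.31 FPKM in shALKBH3, and the groups overlapped. SP100-208, of 452 amino acids, was at 2.52, 1.94 and 2.56 FPKM in NC and at 4.85, 4.65 and 2.83 FPKM in shALKBH3. SP100-206, of 445 amino acids, is the listed isoform that begins at the SP100 start without the letters above, and it was at 0.00201, 0.0430 and 1.15 FPKM in NC and at 1.08, 0.666 and 3.48 FPKM in shALKBH3. SP100-208 did not overlap between the groups and SP100-206 did. The fragments SP100-211, SP100-210 and SP100-207, annotated with open ends, had means of 4.55, 0.880 and 0.400 FPKM in NC and of 9.14, 1.15 and 0.579 FPKM in shALKBH3, and of these SP100-211 did not overlap.

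SP110 was carried by 4 isoforms, of which SP110-202 passed the test and SP110-201 had the larger ratio of means without passing. The difference between these 2 isoforms was not tested. SP110-202 encodes the 549 amino acids known as Sp110b and was at 8.003, 10.1 and 6.94 FPKM in NC and at 25.6, 27.7 and 24.9 FPKM in shALKBH3, a ratio of means of 3.13. It rose by 1.55 on the log2 scale (SE 0.151, limma adjusted p = 0.0261). The call was lost without NC replicates 1 or 3 (adjusted p = 0.0890 and 0.0630) and without shALKBH3 replicates 1, 2 or 3 (0.0822, 0.108 and 0.1004), with log2 changes between 1.44 and 1.58 in these fits.

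SP110-201, the longest SP110 protein with 713 amino acids (Sp110c), was at 2.62, 5.74 and 4.04 FPKM in NC and at 14.9, 20.8 and 16.1 FPKM in shALKBH3. Its ratio of means was 4.18 and its log2 difference 1.87 (SE 0.267), which did not pass (limma adjusted p = 0.0839). SP110-203, with the 689 amino acids of Sp110a, was at 5.30, 3.83 and 3.14 FPKM in NC and at 6.50, 8.17 and 8.68 FPKM in shALKBH3 (log2 difference 0.80, adjusted p = 0.325). Neither overlapped between the groups. SP110-204, of 547 amino acids, was at 5.15, 3.91 and 6.98 FPKM in NC and at 5.11, 6.33 and 9.49 FPKM in shALKBH3, with overlapping groups (log2 difference 0.32, adjusted p = 0.724). Of the mean increase of the SP110 sum 47.7% was in SP110-202 and 35.3% in SP110-201. SP110-205 and SP110-206, annotated with open ends, stayed at or below 1.44 FPKM in every library and were not tested, and SP110-205 was listed at 0 in NC replicate 2 and SP110-206 at 0 in NC replicate 1.

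In SP140L most of the increase was in 1 isoform. SP140L-204, with 438 amino acids and a stop codon of its own, was at 1.79, 3.13 and 2.71 FPKM in NC and at 12.2, 14.2 and 8.55 FPKM in shALKBH3. The groups did not overlap, the ratio of means was 4.59, and 84.4% of the mean increase of the SP140L sum was in this isoform. Its log2 difference of 1.83 (SE 0.246) did not pass (limma adjusted p = 0.0692).

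The 3 other SP140L isoforms share a stop codon and were at low levels. SP140L-203, the longest with 580 amino acids, was at 1.73, 1.25 and 1.73 FPKM in NC and at 1.19, 1.24 and 1.66 FPKM in shALKBH3, and was the member isoform with a lower mean in the knockdown (log2 difference -0.12, limma adjusted p = 0.851). SP140L-201, of 555 amino acids, was at 1.17, 1.08 and 0.573 FPKM in NC and at 1.04, 1.08 and 3.03 FPKM in shALKBH3, where replicate 3 stood above the other 5 libraries. SP140L-202, of 520 amino acids, was at 1.67, 1.95 and 1.51 FPKM in NC and at 2.86, 2.06 and 3.56 FPKM in shALKBH3, without overlap. The log2 differences of SP140L-201 and SP140L-202 were 0.42 and 0.48 (adjusted p = 0.718 and 0.532).

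Isoforms were next grouped by annotated protein length, with long forms at 75% or more of the longest annotated protein of the gene, middle forms at 50% to under 75% and short forms below 50%. Long SP100 forms (SP100-201, SP100-202 and SP100-203) made up 69.7%, 71.9% and 73.5% of the SP100 sum in NC and 69.2%, 68.9% and 69.6% in shALKBH3. The knockdown shares lay below all control shares, with a mean difference of -2.44 percentage points, and the exact two-sided permutation test gave p = 0.1, the smallest that 3 against 3 libraries allow. Without NC replicate 3 the difference was -1.55 percentage points. The middle forms, which include Sp100A, held 10.6 ± 2.87% in NC and 9.38 ± 1.38% in shALKBH3, and the short forms 17.7 ± 4.16% and 21.4 ± 1.34% (SD, 3 libraries each), with overlapping groups (exact permutation p = 0.7 and 0.3). The difference of the middle share, -1.25 percentage points, was -2.59 without NC replicate 2 and -2.04 without shALKBH3 replicate 1, and without NC replicate 3 it turned to 0.267.

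The summed FPKM of each SP100 length group was higher in every knockdown library than in every control, by 1.87 times for long, 1.73 times for middle and 2.29 times for short forms. Among the SP100 isoforms with a complete annotated protein, an alternative chosen after the data had been seen, the long share was 0.912 percentage points higher in the knockdown, the opposite direction. The short forms include SP100-209, whose share was 10.0%, 10.5% and 1.25% in NC and 11.8%, 10.97% and 11.7% in shALKBH3. Without NC replicate 3 the short share differed by 1.29 percentage points, against 3.69 with all libraries.

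SP110 was nearly all in long forms, with control and knockdown shares of 97.8 ± 1.53% and 97.5 ± 1.25% (SD over 3 libraries), and all 4 listed SP140L isoforms counted as long. Several forms lay just above the 75% limit, SP140L-204 at 75.5% of the longest protein, SP110-204 at 76.7%, SP110-202 at 77.0% and SP100-203 at 77.7%. SP100-206 and SP100-208 lay just above the 50% limit, at 50.3% and 51.1%. The class shares, that of the long SP100 forms included, therefore depend on where the limits are set. Within the long SP100 forms the mean share of SP100-203 was 37.9% in NC and 29.3% in shALKBH3. That of SP100-202 was 21.9% and 29.4%. SP110-201 and SP110-203, at 100% and 96.6%, share a stop codon and are given below, together and singly. Grouping by shared stop codon, which was chosen after the data had been seen, gave wider gaps. In SP140L the form with its own stop, SP140L-204, made up 28.1%, 42.2% and 41.5% of the gene sum in NC and 70.5%, 76.5% and 50.9% in shALKBH3, so the mean share went from 37.3% to 66.0% (exact permutation p = 0.1). The share of SP140L-203 was 27.2%, 16.9% and 26.5% in NC and 6.92%, 6.66% and 9.86% in shALKBH3.

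In SP100 the forms that end at the stop of SP100-202, the Sp100C end, made up 31.6%, 33.6% and 22.3% of the sum in NC and 45.0%, 43.6% and 34.0% in shALKBH3. The groups did not overlap, with the highest control at 33.6% and the lowest knockdown library at 34.0% (exact permutation p = 0.1). The share of SP100-203 was 35.7%, 37.7% and 40.3% in NC and 24.2%, 26.7% and 37.1% in shALKBH3, with overlap through shALKBH3 replicate 3 (exact permutation p = 0.2). In SP110 the forms ending like SP110-201 held 37.4%, 39.2% and 33.2% in NC and 39.9%, 44.4% and 41.4% in shALKBH3 (exact permutation p = 0.1). These forms moved in opposite directions. From NC to shALKBH3 the mean share of SP110-201 went from 18.2% to 28.9%, without overlap, and that of SP110-203 from 18.4% to 13.0%, with overlap. The mean share of SP110-202, which shares its stop with SP110-204, went from 37.1% to 43.9%, without overlap. SP110-204 had 24.3%, 16.01% and 32.2% of the SP110 sum in NC and 9.504%, 9.70% and 15.8% in shALKBH3.

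**Figure D3:**
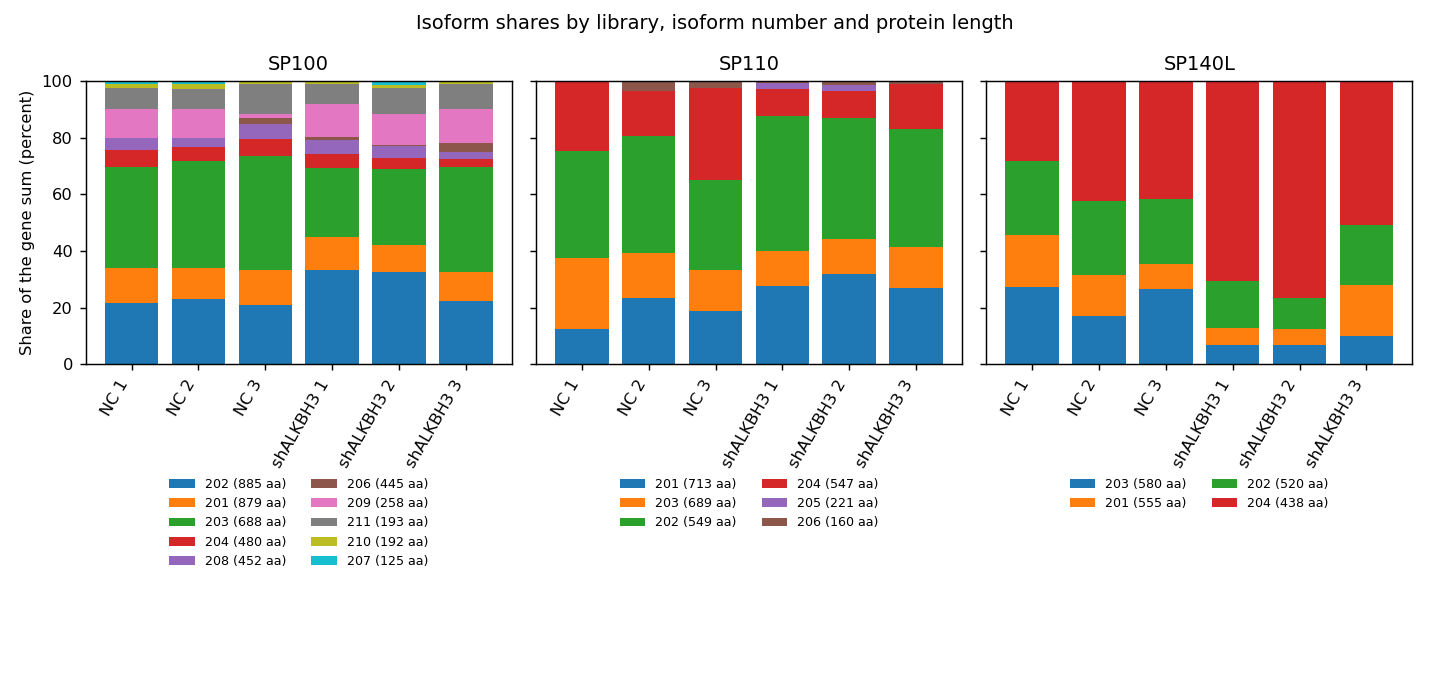
Share of each listed isoform in its gene sum (percent) in the 6 libraries, with 1 stacked bar for each library, and isoform number and protein length in the key. The share of SP140L-204 is at least 50.9% in all 3 knockdown libraries and at most 42.2% in the 3 controls, and shALKBH3 replicate 3 lies nearest to the controls in SP100 and SP140L.

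No shift in isoform use passed the test across all genes. The test asked whether an isoform changed relative to the other listed isoforms of its gene, on log2 ratios with 1 FPKM added to each part, over 16367 isoforms of genes with at least 2. Of the 17 member isoforms tested 0 passed in limma, against 14 of all isoforms (0.0855%, and 0.0489% in the lower direction). At an unadjusted p under 0.05 there were 5 members, 1 higher (SP140L-204) and 4 lower (SP100-210, SP110-204, SP140L-202 and SP140L-203), and 5.12% of all isoforms in either direction. SP140L-203 had the lowest adjusted p, 0.484, with a log2 ratio lower by -1.60 (SE 0.349), and SP140L-204 a log2 ratio higher by 1.46 (SE 0.490, adjusted p = 0.878). Of the 20 shares 4 had all knockdown libraries above all controls and 3 all below, against 6.14% and 5.62% of shares over all genes with at least 2 listed isoforms. Shares of a gene sum to 100%, so those of 1 gene are not independent, and a p that misses the threshold does not show that isoform use was equal.

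**Figure D4:**
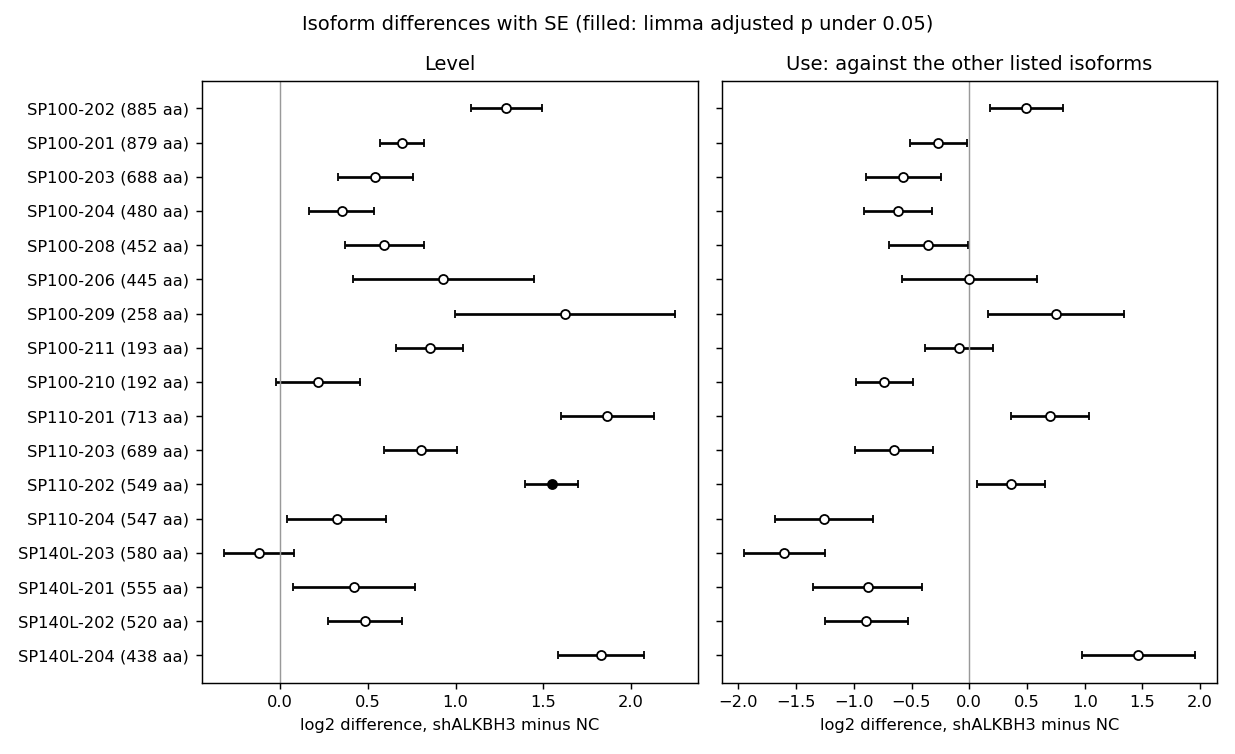
log2 differences between shALKBH3 and NC with their SE for the 17 tested isoforms, as level (left) and as use against the other listed isoforms of the gene (right); a filled point passed limma at an adjusted p under 0.05. SP110-202 is the filled point for level, no point is filled for use, and 16 of 17 levels lie above 0.

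How far isoforms can be told apart depends on the bases and introns that only 1 of them has, counted here among the listed isoforms of each gene in GENCODE 29. SP100-201 had 1647 of its own bases (42.4% of its length), SP100-209 had 907 and SP140L-204 had 382 (21.4%). SP110-202 had 139 and SP110-201 had 90, with 2 introns of its own. By contrast SP100-202, SP100-204 and SP140L-201 had 0 bases and 0 introns of their own, and 8 of the 20 isoforms had 0 bases. SP140L-203 had 2 bases and 0 introns of its own, and SP110-204 had 2 bases and 1 intron. The FPKM of all these isoforms rest wholly or mainly on how fragments shared with other isoforms were divided, so their single values are less certain than the gene sums.

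The size of the rise was compared between the 3 genes, and no pair reached an exact permutation p under 0.05, which 3 against 3 libraries cannot give. Taken within each library, log2(FPKM + 1) of SP110 minus that of SP100 was -1.44, -1.31 and -1.11 in NC and -0.86, -0.82 and -0.89 in shALKBH3, a difference of 0.43. SP140L minus SP100 was -3.03, -2.91 and -2.70 in NC and -2.45, -2.58 and -2.67 in shALKBH3, a difference of 0.32. Both had non-overlapping groups, and both had an exact permutation p of 0.1, the smallest possible, which is 0.15 after adjustment over the 3 pairs. SP110 minus SP140L was 1.59, 1.60 and 1.59 in NC and 1.58, 1.76 and 1.77 in shALKBH3, a difference of 0.11 with overlapping groups (exact permutation p = 0.4). These differences are on a scale that understates changes of the lower genes, SP140L most.

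Other genes of the same structures and pathway were taken from 4 lists. SP140, itself a gene of the family, is counted in both the PML body list and the SAND domain list. Of 29 tested genes of PML bodies, SUMO and their partners 0 rose and 0 fell in limma (HIRA, a histone chaperone gene, alone had an unadjusted p under 0.05), where 1.28% of all genes tested were called higher, 0.477% lower and 17.1% had such an unadjusted p, with a median log2 difference of 0.11 against -0.01 over all genes tested. PML, the scaffold of the bodies, was at 24.9, 16.7 and 20.5 FPKM in NC and at 18.0, 26.1 and 26.5 FPKM in shALKBH3 (log2 difference 0.17, adjusted p = 0.687). DAXX, a histone chaperone held in the bodies, and ATRX, its chromatin remodelling partner, had log2 differences of 0.09 and 0.11 (adjusted p = 0.610 and 0.579). All 3 overlapped between the groups.

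Of 6 tested genes with a SAND domain, the DNA-binding module of this family, 0 passed in limma and 0 had an unadjusted p under 0.05, with a median log2 difference of -0.05. Nearby genes of chromosome 2 also did not pass, with 0 of 9 called and a median of 0.05, and 2 had an unadjusted p under 0.05, a share near the 17.1% of all genes. TRIP12, a ubiquitin ligase gene, had control and knockdown means of 19.3 ± 3.02 and 28.9 ± 3.45 FPKM (SD over 3 libraries, log2 difference 0.56, limma adjusted p = 0.148), and PID1 of 9.001 ± 1.45 and 6.39 ± 0.515 FPKM (log2 difference -0.43, adjusted p = 0.207). HIRA, TRIP12 and PID1 were chosen after their values had been seen.

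Of 11 tested genes of interferon receptors, kinases and transcription factors 1 rose and 0 fell, where 1.28% of all genes were called higher. Of the 11 log2 differences 10 were positive, against 5099 of 10475 over all genes, with a median of 0.23. An unadjusted p under 0.05 was found for 4 of the 11 (IRF2, STAT2, IRF7 and, in the lower direction, IFNAR2), against 17.1% of all genes. IRF2, a DNA-binding factor of the interferon regulatory family, rose from 15.1 ± 0.699 to 23.8 ± 1.40 FPKM (SD over 3 libraries), by 0.63 on the log2 scale (limma adjusted p = 0.0277). STAT2 and IRF9, which act together on interferon response elements, had log2 differences of 0.38 and 0.54 (adjusted p = 0.205 and 0.685), and the receptor genes IFNAR1 and IFNAR2 0.21 and -0.26 (0.311 and 0.239). These lists were written with earlier results of the same libraries known.

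**Figure D5:**
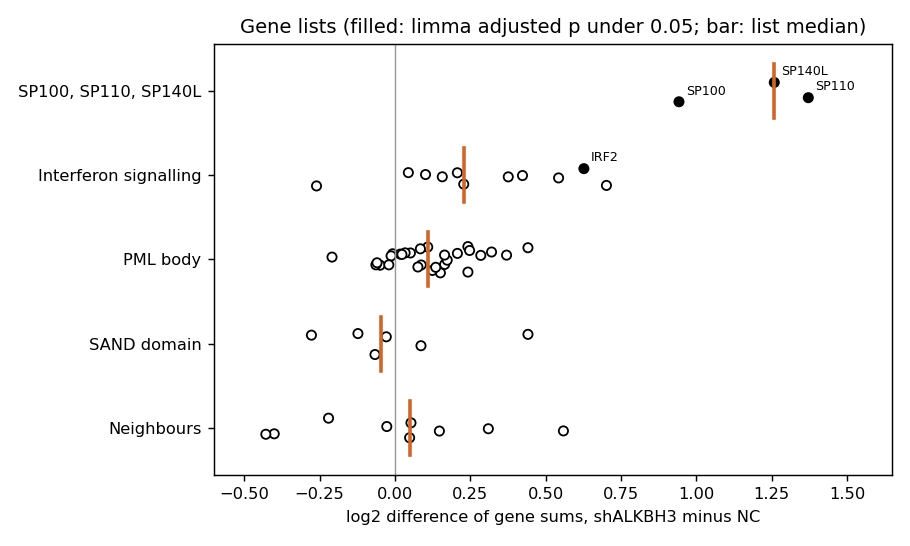
log2 difference of gene sums between shALKBH3 and NC for the 3 family genes and the tested genes of 4 lists, with 1 point for each gene, filled at a limma adjusted p under 0.05, and a bar at each median. SP100, SP110, SP140L and IRF2 are the filled points, and the PML body, SAND domain and neighbour lists hold none.

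The genes most like each member were found by the root mean square distance between profiles over the 6 libraries, on log2(FPKM + 1) with each gene centred on its own mean. SP140L (distance 0.0832) and IFIH1, the gene of the double-stranded RNA sensor MDA5 (0.0955), were among the 3 nearest to SP110. PDGFD, a growth factor gene, was nearest to SP140L (0.0686), followed by SP110 (0.0832). SLFN5, a Schlafen family gene, was nearest to SP100 (0.0608), followed by RASGRP3, an activator of RAS proteins (0.0620), and TDRD7, a Tudor domain gene (0.0714). RASGRP3 was low, with means of 0.588 FPKM in NC and 2.03 FPKM in shALKBH3, against 56.4 and 109 FPKM for SP100. Its nearness rests on the 1 FPKM added, which understates the change of so low a gene. SP110 and SP140L were thus among each other's 3 nearest of 10475 genes, while SP100 was the 46th nearest to SP110 and the 38th nearest to SP140L.

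Markers of cell types were read beside these values, since SP110 and SP140 are strong in leukocytes. Of 6 leukocyte markers CD68 and CD74 were listed, with a summed level of 15.4 to 19.6 FPKM in NC and 34.1 to 37.6 FPKM in shALKBH3. Nearly all of it was CD68, a lysosomal membrane protein gene, at 16.3 ± 2.23 and 36.1 ± 2.04 FPKM (SD, 3 libraries each), while CD74 had means of 0.687 and 0.275 FPKM. PTPRC, CD3E, LYZ and CD14 were not among the listed transcripts, which gives no level for them. Of 10 melanocyte lineage markers MITF and GPNMB were listed, with a summed level of 60.2 to 94.7 FPKM in NC and 112 to 122 FPKM in shALKBH3, and PMEL, MLANA, TYR, TYRP1, DCT, SOX10, S100B and PRAME were not, so the labelled cell type could be read on 2 markers only. Of 4 fibroblast markers COL1A1 and PDGFRB were listed, at 22.4 to 27.2 and 23.4 to 28.5 FPKM in sum, and of 3 endothelial and 2 keratinocyte markers 0 were listed. The part of these in the rise of SP100, SP110 and SP140L was not tested.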

How the data were processed

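The authors deposited FPKM for each transcript in 1 table per library, per the file headers. HTSeq 0.6.0, DESeq2 and the hg19 build appear in the submitters' processing notes with no role. The tool that estimated FPKM is not given in the sources used here. Lift suffix and version were stripped from transcript identifiers, which were matched to GENCODE release 29 (28796 of 28900, 99.6%). Gene names, protein lengths and exon structures come from that release, on GRCh38, and sequences from RefSeq (GRCh38.p14).

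FPKM were summed over the listed isoforms of each gene. Gene sums, isoforms and isoform use with a 6-library mean of at least 1 FPKM were tested with limma 3.58.1 (R 4.3.3) on log2 values with 1 FPKM added, with a variance trend, two-sided, and Benjamini-Hochberg adjustment over all features of that kind. Isoform use needed at least 2 listed isoforms. Shares and differences between genes used exact two-sided permutation tests over libraries. The limma fits of gene sums, isoforms and isoform use were checked on simulated, normally distributed values, and the outcome is not given here. Tables were made in Python 3.11.15 (numpy 2.4.6, pandas 2.3.3), alignments with Biopython 1.88 and plots with matplotlib 3.10.9.

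The members, lists and tests were chosen with earlier results of these data known. Genes named are SP100, SP110 and SP140L with all listed isoforms, SP140, ALKBH3, PML, DAXX and ATRX, list members past the threshold and the 3 genes nearest to each member; others were chosen after their values were seen. A few genes that these rules would name are not reported here, and the list counts leave them out, while every fit holds all genes. Alternatives were other pseudocounts, filters and scalings, no variance trend, the most abundant isoform, a replicate block and leaving out each library.

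Same-numbered libraries of the 2 groups were not paired by their labels, and their deviations from the group means correlated at -0.0877, 0.0754 and -0.0116.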

Additional observations from a re-analysis of the deposited data

How the results depend on the processing

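Directions of the 3 gene sums held under every alternative run. When 1 library was left out, the log2 change ran from 0.83 to 1.01 for SP100, from 1.30 to 1.44 for SP110 and from 1.22 to 1.32 for SP140L. SP100 lost its call with its most abundant isoform in place of the sum (log2 0.54, limma adjusted p = 0.364). With a replicate block, SP100 (log2 0.94, adjusted p = 0.120) and SP140L (1.26, adjusted p = 0.0547) lost their calls and SP110 kept it (adjusted p = 0.0386). The labels share only a number, so this does not show a weaker effect. The block left 17 genes higher and 3 lower of 10475, against 134 and 50, and 0 of 17 single isoforms, against 1. Leaving out 1 library gave 0 or 1 of 17. Leaving out any 1 library gave 39 to 87 genes higher and 9 to 22 lower, with fewer samples fitted. Isoform use gave 0 members under every alternative. The long SP100 share differed by -2.44 percentage points and by 0.912 among complete proteins.

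SP100-206 and SP100-211 changed sign in use. SP100-206 went from -0.0014 to 1.55 and 0.41 with pseudocounts of 0.1 and 0.5, and ran from -0.41 to 0.48 when 1 library was left out, positive without NC replicate 3 (0.48) and shALKBH3 replicates 1 and 2 (0.06 and 0.35). SP100-211 went from -0.09 to 0.018 with a pseudocount of 0.1, and ran from -0.22 to 0.10 when 1 library was left out, positive without NC replicate 3 (0.10) and shALKBH3 replicate 1 (0.02). The cause was not tested. Scaling to equal sums moved the median of all genes from -0.01 to 0.07 and changed 134 higher and 50 lower to 153 and 24. The counts over all genes without a variance trend were 105 and 27, and with the most abundant isoform 80 and 25. Depth is unknown and limits the low isoforms.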
